A study of Caenorhabditis elegans with 119 samples.

Results

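The 36 genes described here encode nuclear-encoded subunits of the mitochondrial respiratory chain and of ATP synthase in the nematode Caenorhabditis elegans. They were found by gene symbol among the 46926 genes of each count table, and all 36 were present. The list holds 13 subunits of complex I, 4 of complex II, 4 of complex III, 6 of complex IV and 9 of ATP synthase. It does not hold every subunit of these complexes. The genes were listed by symbol and not by a measured value, although earlier results of these data were known when the list was made.

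RNA was sequenced from whole adult worms, each library being made from about 50 worms grown at 20 °C. All groups, controls included, were kept from day 1 of adulthood on plates with 51 µM FUdR, which blocks the production of progeny, with 0.25% DMSO as the solvent and with Escherichia coli OP50-1 as food. The treated groups also received sulforaphane (SFN), an isothiocyanate from cruciferous vegetables, and the concentration is not given in the sources used here. Wild-type N2 worms on SFN or DMSO were collected at days 2, 4, 8, 12 and 16 of adulthood with 4 libraries per age and treatment. A separate table holds N2 on DMSO alone at the same 5 ages in trials 2 and 3, with 4 libraries per age and trial and therefore 8 per age. The daf-16(fx107) strain PX991 was collected at days 4 and 12 with 4 libraries per group. For the skn-1(zu67) strain EU1 those ages have 6 libraries per group, or 5 for SFN at day 4, and its replicates 4, 5 and 6 were each collected at a time of their own. daf-16 encodes the FOXO transcription factor of insulin signalling, and skn-1 encodes the worm counterpart of the mammalian Nrf factors. Each allele is represented by 1 strain, and apart from those EU1 replicates the libraries of a group were aged and collected in tandem.

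The respiratory chain passes electrons from NADH (through complex I) and from succinate (through complex II) to ubiquinone, then to cytochrome c through complex III, and to oxygen through complex IV. The protons pumped by complexes I, III and IV drive ATP synthase. Most subunits are encoded in the nucleus and a few in the mitochondrial genome, so the complexes other than complex II are built from both sources. In C. elegans, mutants of gas-1 and mev-1 are short-lived and sensitive to oxidative stress, whereas mutants of isp-1 and nuo-6 are long-lived.

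Total counts per library, in units of 1e6, were 0.445 to 12.5 in the SFN table of N2 (40 libraries), 1.07 to 8.61 in trials 2 and 3 (40), 0.585 to 5.46 in PX991 (16) and 2.06 to 10.3 in EU1 (23). At a common depth of 444501 counts, the N2 DMSO libraries of day 2 replicate 1 and day 4 replicate 4 held the fewest genes, 7115 and 6660, and PX991 SFN day 12 replicate 3 held the most, 15272. The first 2 of these, doubted for this reason, were left out in a repeat of each N2 result, a choice made after seeing the data. The share of counts in ribosomal RNA was higher on SFN than on DMSO in N2, for example 4.212% to 8.853% against 0.51% to 1.691% at day 2. In PX991 at day 4 it was 4.397% to 28.006% on SFN and 3.324% to 15.389% on DMSO. In EU1 at day 4, replicate 3 held 47.917% on SFN and 36.746% on DMSO. The others there held 4.276% to 7.83% and 5.464% to 11.929%. The part of this share in the results was not tested. skn-1 ranged from 77.9 to 147 CPM (counts per 1e6 of the scaled library total) in the EU1 libraries of day 12 and from 268 to 332 in N2. daf-16 ranged from 56.8 to 157 CPM in PX991 at day 12 and from 203 to 264 in N2. At day 4 it ranged from 129 to 179 CPM in PX991 and from 109 to 219 in N2, with overlap. skn-1 ranged from 125 to 215 CPM in PX991 at day 12, also below N2. Each strain was scaled on its own, so levels are not comparable between strains. The labels do not give the part of either gene that the allele changes, so these levels are a description and no check of the labels.

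Of the 36 genes, 35 passed the filter on low counts in every fit and were tested. The exception was nuo-3, a complex I accessory subunit (WBGene00013308, chromosome IV:14796419-14797544, WBcel235). It had 31 counts in all libraries together, a count in 18 libraries and at most 1.34 CPM. Of its exon bases, 72.63% are shared on the same strand with another annotated gene that had 0 counts, so reads of nuo-3 may have been left unassigned and its level is uncertain. For nduf-6, another accessory subunit of complex I, 10.4% of the exon bases lie opposite exons of prpf-4.

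The members differed widely in abundance. Levels per length (CPM per kilobase of exon) were compared in the 40 libraries of trials 2 and 3. ATP synthase genes had the highest medians, 549 CPM per kb for atp-2 (beta subunit of the catalytic head), 484 for atp-5 (stalk subunit d), 473 for atp-1 (alpha subunit of the head) and 357 for atp-3 (stalk). They were followed by cox-5A (337) of complex IV, atp-4 (313) of the stalk and cox-6B (279 CPM per kb) of complex IV. The lowest medians were those of sdha-1 (21.8), gas-1 (22), ucr-2.1 (32.1) and asg-2 (34.7 CPM per kb), all on the X chromosome. sdha-1 encodes a flavoprotein of succinate dehydrogenase and gas-1 a core subunit of complex I. ucr-2.1 encodes a core protein 2 of complex III and asg-2 a subunit g of ATP synthase. These are levels of single genes, and the levels of any other genes for the same subunit were not added. By complex, the median of the member medians was 313 CPM per kb for ATP synthase, 198 for complex IV, 140 for complex III, 97.2 for complex I and 82.3 for complex II. The ranges over libraries of neighbours in this order overlapped, for example 470 to 736 for atp-2 and 357 to 628 CPM per kb for atp-5.

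**Figure D1:**
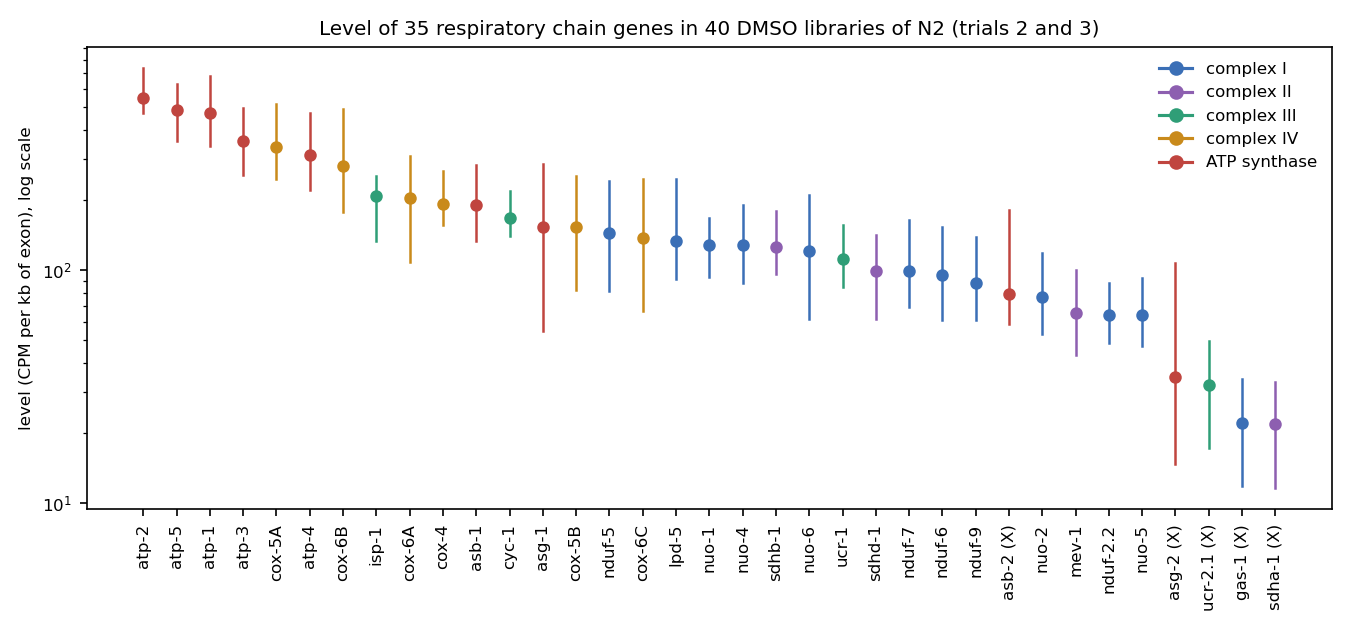
Level of each of the 35 genes with counts (CPM per kb of exon, log axis) in the 40 N2 DMSO libraries of trials 2 and 3, in order of the median and coloured by complex; bars span the lowest to the highest library. The medians run from 21.8 (sdha-1) to 549 CPM per kb (atp-2).

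The question of how these genes change as untreated wild-type adults age was addressed with trials 2 and 3. The members moved together at the first step. From day 2 to day 4, 23 of the 35 members fell and none rose at an adjusted p under 0.05 (edgeR's quasi-likelihood test, Benjamini-Hochberg adjustment over 11073 genes, with trial as a term). Among all genes tested, 8.65% fell and 9.5% rose. The log2 change was negative for 34 of 35 members, with a median of -0.26 against 0.01 for all genes. Summed over the members, the level was 6540 to 7930 CPM (median 7110) at day 2 and 5500 to 6380 CPM (median 6050) at day 4, and the 8 libraries of day 4 all lay below the 8 of day 2. In whole worms, less RNA per cell and fewer cells of a type cannot be told apart.

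By complex, 8 of 12 tested members fell in complex I, 3 of 4 in complex II, 4 of 4 in complex III, 2 of 6 in complex IV and 6 of 9 in ATP synthase. The median log2 change was -0.31 for complex I, -0.30 for complex II, -0.42 for complex III, -0.13 for complex IV and -0.20 for ATP synthase. No test of a difference between complexes was made. The complex IV members that did not pass, cox-5B, cox-6A, cox-6B and cox-6C, had log2 changes of -0.02 to -0.13.

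isp-1 encodes the Rieske iron-sulfur protein of complex III (WBGene00002162, chromosome IV:8134016-8136055). Its libraries of day 2 ranged from 164 to 241 CPM with a median of 208, and those of day 4 from 131 to 177 CPM with a median of 146. All 8 libraries of day 4 lay below the mean of day 2, although the ranges overlapped. This was a log2 change of -0.44 ± 0.06 (SE, n = 8 and 8; adjusted p = 5.953e-07, edgeR with Benjamini-Hochberg adjustment). The other members of complex III fell with it, ucr-1 (core protein 1) by 0.40, ucr-2.1 by 0.46 and cyc-1 (cytochrome c1) by 0.29 on the log2 scale.

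In complex I, nduf-9, an accessory subunit, ranged from 129 to 200 CPM at day 2 (median 162) and had a median of 116 CPM at day 4, with a lowest library of 104 CPM. The ranges overlapped, and the log2 change was -0.43 ± 0.06 (SE; adjusted p = 1.61e-06, edgeR with Benjamini-Hochberg adjustment). nduf-5, another accessory subunit, fell from 74.5 to 105 CPM in the libraries of day 2 to 42 to 74.6 CPM at day 4, a log2 change of -0.46 ± 0.09. The core subunits nuo-1 (-0.39), nuo-2 (-0.42) and gas-1 (-0.57) and the accessory subunit nuo-4 (-0.32) also fell on the log2 scale. nduf-2.2, the paralogue of gas-1, had a log2 change of -0.08 ± 0.08 and did not pass.

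asb-2 encodes subunit b of the peripheral stalk of ATP synthase (WBGene00000207, chromosome X:4469766-4471476). It ranged from 131 to 214 CPM at day 2 (median 156) and had a median of 102 CPM at day 4, with a lowest library of 90.9 CPM. Every library of day 4 lay below every library of day 2. The log2 change was -0.69 ± 0.10 (SE; adjusted p = 1.728e-06, edgeR with Benjamini-Hochberg adjustment). In complex II, the iron-sulfur subunit sdhb-1 also separated the ages, with 118 to 154 CPM at day 2 and a lowest library of 102 CPM at day 4, without overlap (log2 change -0.30 ± 0.08). atp-5, subunit d of the stalk, fell by 0.21 on the log2 scale, and 7 of 8 libraries of day 4 lay below the mean of day 2.

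Fitted alone, trial 2 gave 10 members lower and 1 higher, with a median log2 change of -0.23, and trial 3 gave 15 lower and none higher, with a median of -0.29. All 23 members called in both trials together kept their direction in each trial alone. They were called from these same libraries, so the kept direction is no independent check. The count stayed between 17 and 23 when single libraries were left out.

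The same step could be read in the other N2 table, which shares no library with trials 2 and 3. This comparison was added after the data had been seen. On DMSO, 30 of 35 members fell from day 2 to day 4, where 12.6% of all genes fell and 13.8% rose, and the median log2 change was -0.76 (0.02 over all genes). The count was 17 when only these libraries entered the fit. On SFN, 25 of 35 fell, where 4.77% of all genes fell and 4.85% rose, and the median was -0.55 (0.04 over all genes), with a negative value for 35 of 35. Without the N2 DMSO libraries of day 2 replicate 1 and day 4 replicate 4, the counts were 34 and 33. The summed level on DMSO was 10500, 12800, 11700 and 10200 CPM in the libraries of day 2 and 7430, 7160, 6680 and 6350 CPM in those of day 4. On SFN it was 10700, 10200, 10200 and 10200 CPM at day 2 and 7680, 7210, 7160 and 6050 CPM at day 4. In both treatments every library of day 4 lay below every library of day 2.

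cox-4, a nuclear-encoded subunit of complex IV, measured 418, 514, 513 and 374 CPM on DMSO at day 2 and 264, 233, 210 and 244 CPM at day 4. Its log2 change was -0.94 ± 0.11 (SE, n = 4 and 4; adjusted p = 5.411e-09, edgeR with Benjamini-Hochberg adjustment). On SFN it measured 448, 417, 386 and 372 CPM at day 2 and 308, 254, 260 and 200 CPM at day 4, a log2 change of -0.66 ± 0.11. The ages did not overlap in either treatment. atp-1 fell on DMSO from 1310, 1600, 1490 and 1340 CPM to 918, 880, 845 and 605 CPM, also without overlap. ucr-2.1 (WBGene00012158, chromosome X:12018429-12021206) had a log2 change of -1.50 ± 0.18 on DMSO, from 84.9, 103, 75.7 and 72.9 CPM to 35.1, 35.1, 26.9 and 7.29 CPM. The lowest value came from the library of day 4 replicate 4, and without it and day 2 replicate 1 the log2 change was -1.43. On SFN, ucr-2.1 measured 80.2, 70, 74 and 69.2 CPM at day 2 and 56.1, 56.8, 44.2 and 48.7 CPM at day 4, without overlap, but its log2 change of -0.49 ± 0.17 did not pass (adjusted p = 0.06647, edgeR with Benjamini-Hochberg adjustment).

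Lower at day 4 in trials 2 and 3, on DMSO and on SFN were 18 members. They were nuo-1, nuo-2, nuo-5, gas-1, nduf-5 and nduf-7 of complex I, sdhb-1 and mev-1 of complex II, isp-1, cyc-1 and ucr-1 of complex III, cox-4 and cox-5A of complex IV, and atp-1, atp-2, atp-4, atp-5 and asb-2 of ATP synthase. The 3 members that passed in none of these comparisons were nuo-6, lpd-5 and nduf-6, all of complex I. Without the doubted libraries all 3 passed as lower on DMSO (log2 changes of -0.47, -0.58 and -0.39), and nuo-6 and lpd-5 also on SFN.

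**Figure D2:**
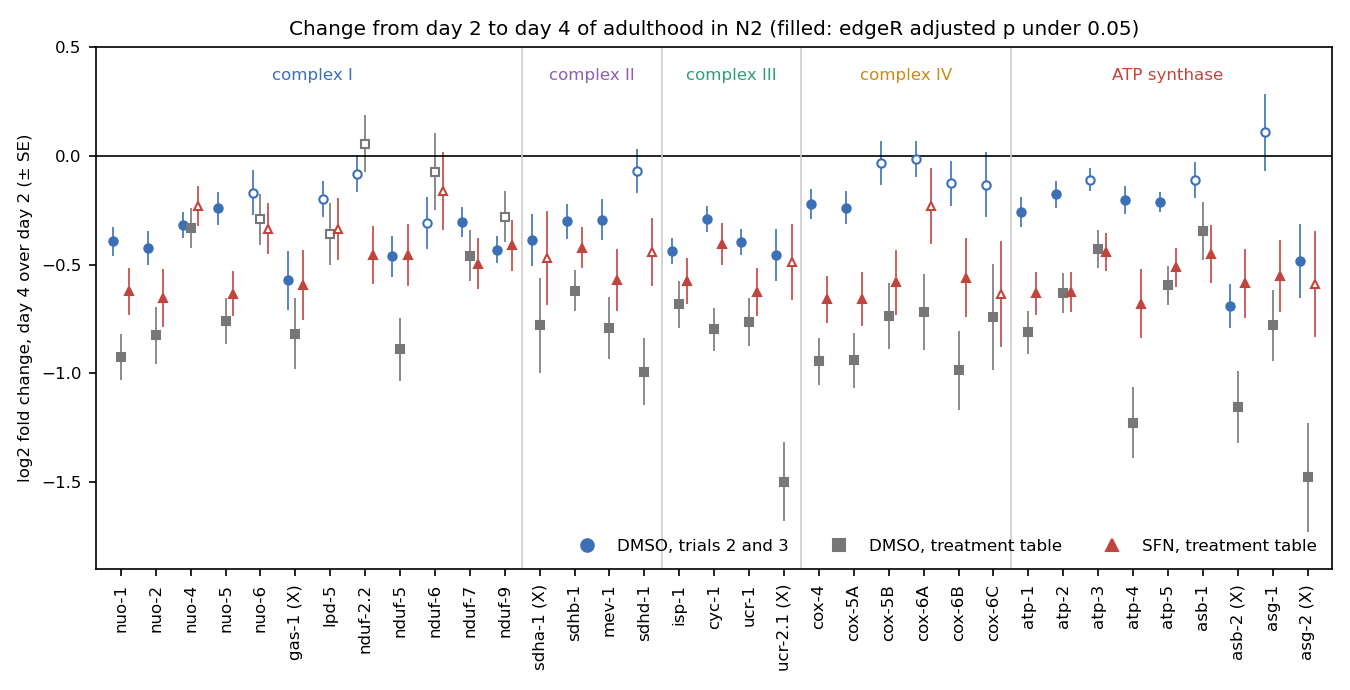
Log2 change from day 2 to day 4 of adulthood for the 35 tested members, with bars for the SE, in N2 on DMSO in trials 2 and 3, on DMSO in the SFN table and on SFN; filled points passed an adjusted p of 0.05. Points lie below 0 for 34, 34 and 35 of 35 members.

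Other mitochondrial genes were read in the same step of trials 2 and 3. Of 22 further complex I subunits, 12 fell, with a median log2 change of -0.30, among them ndub-10 (-0.42), ndus-8 (-0.45) and nduc-2 (-0.54). Of 21 genes of the citric acid cycle, which feeds electrons to complexes I and II, 15 fell and 1 rose, and pdha-1 (-0.46), ogdh-2 (-0.44) and dlat-1 (-0.40) were those with the smallest p. Of 32 tested genes of other chain components and assembly factors, 9 fell and 1 rose. Of 14 genes of the mitochondrial unfolded protein response, 2 fell. Of the 12 protein genes of the mitochondrial genome, 4 fell in trials 2 and 3, whereas 7 rose on DMSO and 2 fell on SFN in the other table.

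Muscle genes moved with this step. Of 11 marker genes of body wall and pharyngeal muscle, 10 fell in trials 2 and 3, with a median log2 change of -1.21. Their summed level went from 2690 to 4290 CPM at day 2 to 1310 to 1750 CPM at day 4 in trial 2, and from 2180 to 3330 CPM to 1070 to 1570 CPM in trial 3. In the other N2 libraries 9 of 11 fell on DMSO and 7 of 11 on SFN, and no marker was at 0 in any group. Of 15 oocyte and germline genes, 7 rose in trials 2 and 3. Their summed level went from 15600 to 16100 CPM to 16300 to 17600 CPM in trial 2 and from 10800 to 11900 CPM to 13300 to 13600 CPM in trial 3. Of 7 intestine genes 2 fell, of 7 neuronal genes none passed, and the 2 tested of 5 hypodermis genes fell. The part of these tissues in the members' values was not tested.

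From day 4 to day 8, 5 members rose and 4 fell, close to the background of 14% of all genes higher and 14.1% lower. Those that rose were isp-1 (log2 change 0.31), sdhb-1 (0.33), atp-3 (0.21), ucr-1 (0.22) and atp-1 (0.21). Those that fell were lpd-5 (-0.26), an accessory subunit of complex I, asg-2 (-0.54), mev-1 (-0.27), the cytochrome b560 anchor of complex II, and nuo-5 (-0.20), an iron-sulfur core subunit of complex I. isp-1 went from 131 to 177 CPM at day 4 to 156 to 216 CPM at day 8, and all 8 libraries of day 8 lay above the mean of day 4. Trial 2 alone gave 2 higher and 1 lower, and trial 3 alone gave 3 higher and 4 lower.

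From day 8 to day 12, 7 members rose and none fell, where 15.5% of all genes rose and 16.3% fell. The leading member was atp-4, coupling factor 6 of the peripheral stalk. It ranged from 120 to 186 CPM at day 8 and from 162 to 211 CPM at day 12, a log2 change of 0.35 ± 0.07 (SE; adjusted p = 6.441e-05, edgeR with Benjamini-Hochberg adjustment). atp-3, the OSCP subunit of the stalk (WBGene00000230, chromosome I:5428533-5429908), rose by 0.24, and the other 5 (nduf-7, an iron-sulfur core subunit of complex I, and sdhd-1, sdha-1, cyc-1 and nuo-1) rose by 0.16 to 0.33. The count was 3 in trial 2 alone, 2 in trial 3 alone and 3 with no filter on low counts. It was 4 without trial 3 day 8 replicate 1, trial 3 day 8 replicate 2 or trial 2 day 12 replicate 4, and 3 without trial 2 day 12 replicate 2.

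From day 12 to day 16, 5 members rose and none fell, where 3.77% of all genes rose and 5.06% fell. They were cox-4 (log2 change 0.27), nduf-2.2 (0.31), nduf-7 (0.25), cox-6A (0.26) and atp-3 (0.16). All 6 complex IV members had positive values, with a median of 0.26. cox-4 ranged from 144 to 196 CPM at day 12 and from 176 to 227 CPM at day 16, and all 8 libraries of day 16 lay above the mean of day 12. The count was 10 with DESeq2, 10 in a fit of these ages alone and 2 with no filter on low counts. It was also 2 without trial 3 day 12 replicate 4, 3 without trial 2 day 12 replicate 3, trial 3 day 12 replicate 3 or any of trial 2 day 16 replicates 1, 2 and 3, 9 without trial 2 day 12 replicate 2 or trial 3 day 16 replicate 3, and 11 without trial 3 day 16 replicate 1.

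**Figure D3:**
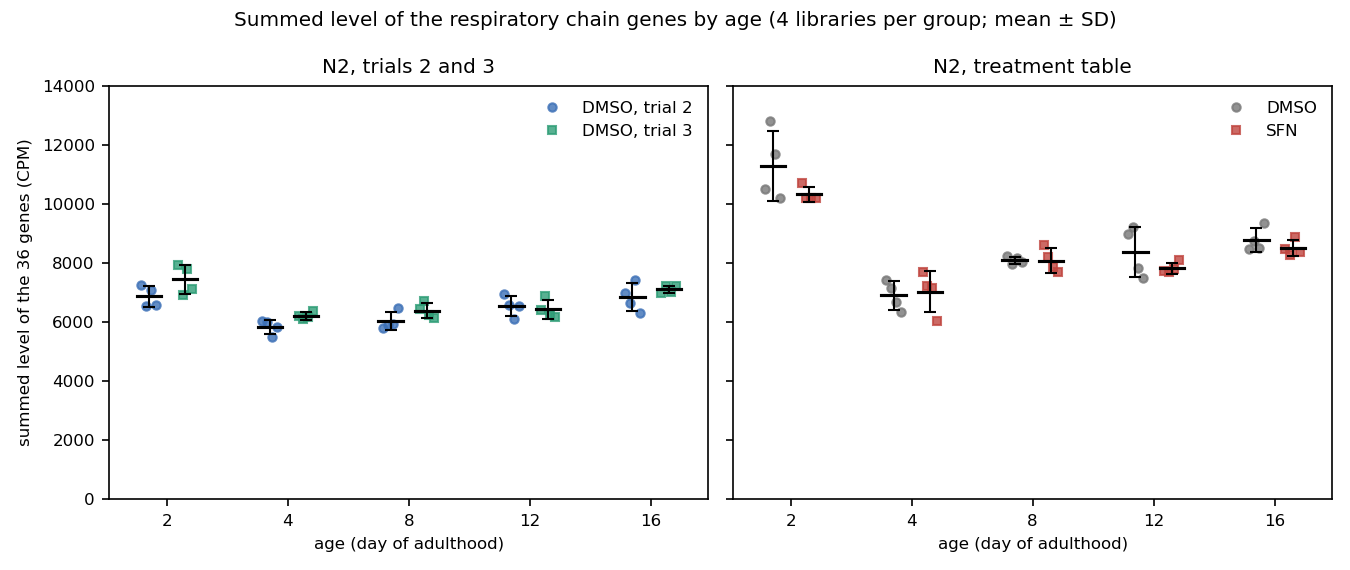
Summed level of the members (CPM) at days 2, 4, 8, 12 and 16 of adulthood in N2, with 1 point per library and the mean ± SD of 4 libraries per group, for DMSO in trials 2 and 3 and for SFN and DMSO in the other table. The lowest levels are at day 4 in each set, with 5500 to 6380 CPM in trials 2 and 3.

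Over the whole span from day 2 to day 16, 7 members rose and 11 fell, and the calls depended on the trial. Trial 2 alone gave 12 higher and 8 lower, and trial 3 alone gave 2 higher and 13 lower. In the fit of both trials, of 12 tested complex I members 8 fell and none rose. In the other complexes 2 of 4 (complex II), 1 of 4 (complex III) and 1 of 6 (complex IV) rose and none fell, and in ATP synthase 3 of 9 rose and 3 fell. Among all genes, 32.7% rose and 30.8% fell. The trials did not share this picture in full. In complex II, sdhb-1 and sdhd-1 passed as higher in trial 2 alone, but not in trial 3 alone (log2 changes of 0.163 and 0.288). In ATP synthase, asg-1 had log2 changes of 1.32 in trial 2 alone and -0.0801 in trial 3 alone. atp-2 passed as lower in trial 2 alone and did not pass in trial 3 alone. cox-6B had a log2 change of 0.41 in trial 2 alone and -0.42 in trial 3 alone, and cox-5B had 0.56 and -0.24, each past the threshold in both trials. cox-4, cox-6A and cox-6C passed as higher in trial 2 alone, and cyc-1 and ucr-2.1 passed as lower in trial 3 alone. No test of a difference between complexes or trials was made. The summed level of the members returned to 6300 to 7410 CPM at day 16. Day 2 held the highest mean of 18 members and day 16 that of 17, whereas day 8 held the lowest of 15 and day 4 of 14.

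atp-3 rose without overlap, from 264 to 392 CPM at day 2 to 423 to 512 CPM at day 16. Its log2 change was 0.50 ± 0.05 (SE, n = 8 and 8; adjusted p = 2.651e-11, edgeR with Benjamini-Hochberg adjustment). sdhd-1, the small anchor of complex II, rose by 0.48 and sdhb-1 by 0.31. isp-1 rose by 0.14, but in trial 3 alone its log2 change was -0.005982. In the other direction, nduf-5 (WBGene00021839, chromosome I:3001406-3002847) went from 74.5 to 105 CPM down to 35.4 to 66.4 CPM, again without overlap, a log2 change of -0.69 ± 0.10 (adjusted p = 4.469e-08, edgeR with Benjamini-Hochberg adjustment). The other complex I members that fell were nuo-2 (-0.32), nuo-4, nuo-5 (-0.33), nuo-6 (-0.37), gas-1 (-0.34), lpd-5 (-0.30) and nduf-9 (-0.26). Of the 11 muscle markers 8 fell and 1 rose over this span, and their part was not tested.

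Of the members, 3 pairs are paralogues, in each of which 1 gene lies on the X chromosome and the other on an autosome. Reads shared by the copies of a pair could be split by the counting, so their levels are uncertain to that extent. The pairs are asb-1 (chromosome III) and asb-2 (X) for subunit b, gas-1 (X) and nduf-2.2 (III) in complex I, and asg-1 (I) and asg-2 (X) for subunit g. asb-1 is known as the germline form of subunit b. From day 2 to day 16 in trials 2 and 3 the X-linked copy of each pair fell. The autosomal copies rose (asg-1) or did not pass. The X-linked copies had negative values in each trial alone, but gas-1 passed in neither trial alone and asg-2 only in trial 3. Among all X-linked genes tested, 37.5% rose and 29.1% fell over this span.

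asb-2 had median levels of 156, 102, 85, 91.3 and 83.3 CPM at days 2, 4, 8, 12 and 16, and asb-1 had 191, 178, 185, 198 and 221 CPM. The log2 change from day 2 to day 16 was -0.93 ± 0.10 for asb-2 (adjusted p = 1.567e-10, edgeR with Benjamini-Hochberg adjustment) and 0.17 ± 0.08 for asb-1, which did not pass. The share of asb-2 in the summed level of both fell in trial 2 from a median of 43.5% at day 2 to 28.4% at day 16, and in trial 3 from 44.5% to 23%. In the DMSO libraries of the SFN table the medians were 42.2% and 26.9%.

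gas-1 had median levels of 50.9, 31.2, 28, 37.7 and 37.6 CPM over the 5 ages, and nduf-2.2 had 97.2, 96, 87.1, 81.3 and 106 CPM. gas-1 changed by -0.34 ± 0.14 on the log2 scale from day 2 to day 16 and nduf-2.2 by 0.08 ± 0.08, and the latter did not pass. asg-2 had medians of 28.2, 19.5, 14, 15.7 and 16.4 CPM, and asg-1 of 62.5, 69.7, 58.6, 61.3 and 90.9 CPM. asg-2 fell by 0.71 ± 0.18 and asg-1 rose by 0.57 ± 0.18 on the log2 scale from day 2 to day 16. In trial 3 alone the log2 change of asg-1 was -0.08. In the DMSO libraries of the SFN table the share of gas-1 in its pair had medians of 30.8%, 19.4%, 31.1%, 30.1% and 27.5% over the 5 ages. The share of asg-2 in its pair had medians of 23.4%, 17.2%, 18%, 15.3% and 13.8% there.

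**Figure D4:**
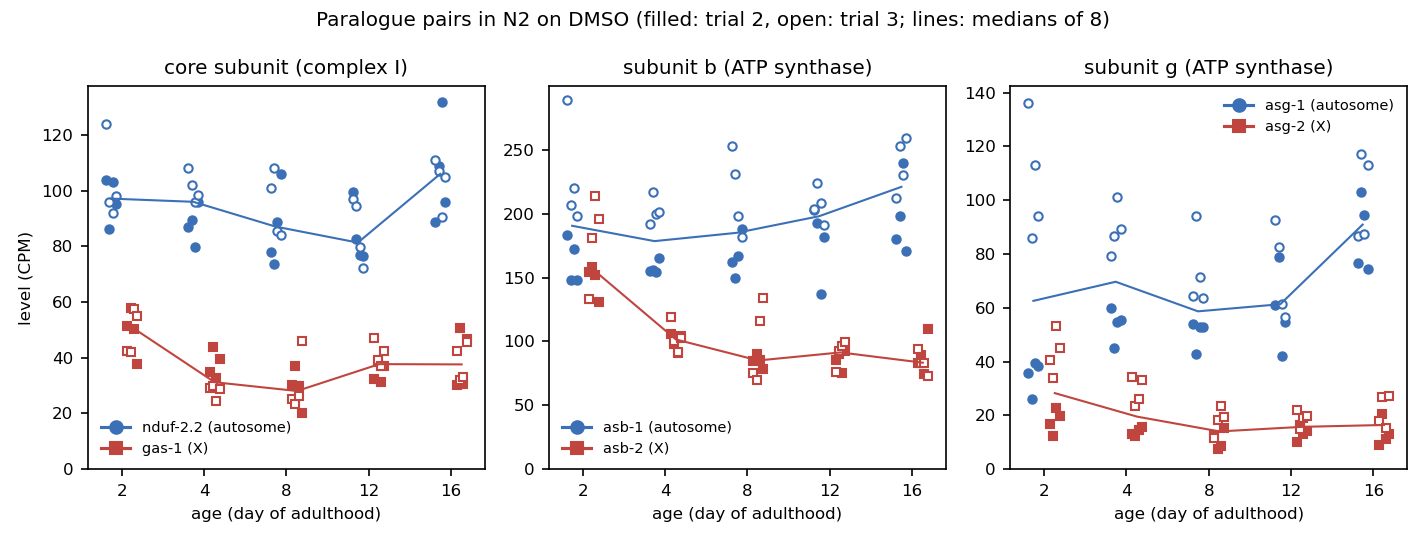
Level (CPM) of the 3 paralogue pairs at 5 ages in N2 on DMSO, with 1 point per library (filled for trial 2, open for trial 3) and lines through the medians of 8 libraries. The median of asb-2 goes from 156 to 83.3 CPM between day 2 and day 16 while that of asb-1 goes from 191 to 221 CPM.

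In the mutant strains the age comparison runs from day 4 to day 12 on DMSO. In PX991, 3 of 35 members rose and 4 fell, where 18.1% of all genes rose and 18% fell. asb-2 measured 125, 139, 127 and 136 CPM at day 4 and 91.3, 56.5, 82.8 and 67.3 CPM at day 12, without overlap. The log2 change was -0.83 ± 0.20 (SE, n = 4 and 4; adjusted p = 0.002774, edgeR with Benjamini-Hochberg adjustment). gas-1 (-0.60), sdha-1 (-0.51) and nuo-5 (-0.38) fell, and nduf-2.2 (0.41), nduf-7 (0.39) and nduf-6 (0.47) rose on the log2 scale. Without day 4 replicate 4 or day 12 replicate 2 the count was 3, and with no filter on low counts it was 4, all lower. nduf-2.2 measured 101, 85.4, 110 and 109 CPM at day 4 and 137, 140, 130 and 130 CPM at day 12, so that the share of gas-1 in the pair went from a median of 26.1% to 15.1%. The share of asg-2 in its pair had medians of 21.8% and 20.2%.

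In EU1, 4 of 35 members rose and 3 fell from day 4 to day 12, where 22.4% of all genes rose and 23.4% fell. lpd-5 ranged from 93 to 125 CPM at day 4 and from 69 to 93.5 CPM at day 12, and 6 of 6 libraries of day 12 lay below the mean of day 4. Its values give a log2 change of -0.41 ± 0.09 (adjusted p = 0.0005199, edgeR with Benjamini-Hochberg adjustment). nduf-5 fell by 0.41 without overlap, from 66.7 to 87.6 CPM to 54 to 62.4 CPM, and asb-2 fell by 0.57. nduf-7 (0.31), atp-3 (0.22), sdhb-1 (0.23) and isp-1 (0.21) rose. The share of gas-1 in its pair had medians of 24.6% at day 4 and 25.5% at day 12. At day 12 this share ranged from 16.5% to 38% in EU1 and from 13% to 20.9% in PX991. These ranges overlap, and the difference between the mutants was not tested. The share of asg-2 in its pair had medians of 20.1% and 14.6%. With no filter on low counts the count was 3, all lower. The same step was not tested against N2, and shared directions between strains are given as values only.

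The question of what SFN does to these genes was put at each age in N2. The library names begin with a letter and number that may be plate positions. These numbers differed between the treatments at days 2, 4, 12 and 16 and were the same at day 8. DMSO libraries were deeper without overlap at days 12 and 16, and the ranges overlapped at days 2, 4 and 8. At day 12 the total counts were 3676850 to 8619547 on SFN and 10569626 to 12536097 on DMSO. The SFN comparisons also carry any difference of position or depth, and its part was not tested. Few members passed at any age. At day 2, 1 of 35 fell and none rose, where 1.63% of all genes fell and 2.7% rose. It was sdhb-1 (WBGene00006433, chromosome II:9350714-9352731), with 192, 200, 203 and 211 CPM on SFN and 299, 278, 268 and 241 CPM on DMSO. The groups did not overlap, with a log2 change of -0.42 ± 0.09 (SE, n = 4 and 4; adjusted p = 0.006247, edgeR with Benjamini-Hochberg adjustment). Values were negative for 32 of 35 members, with a median of -0.18 against 0.07 for all genes. The count grew to 7 lower, among them cox-5B, cox-6C, mev-1 and nuo-2, without the DMSO libraries of day 2 replicate 1 and day 4 replicate 4. In a fit of only these groups no member passed (sdhb-1 adjusted p = 0.08228, edgeR with Benjamini-Hochberg adjustment). Leaving out single libraries gave 2 lower (SFN replicate 1, DMSO replicate 2 or DMSO replicate 3) or 3 lower (DMSO replicate 1 or 4).

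At day 4, 2 members rose and 1 fell, where 7.06% of all genes rose and 3.24% fell. ucr-2.1 measured 56.1, 56.8, 44.2 and 48.7 CPM on SFN and 35.1, 35.1, 26.9 and 7.29 CPM on DMSO, without overlap. The log2 change was 0.80 ± 0.18 (adjusted p = 0.003759, edgeR with Benjamini-Hochberg adjustment), and it stayed between 0.69 and 0.92 when single libraries were left out. nduf-2.2 (WBGene00006463, chromosome III:6465222-6467206) measured 85.4, 86.3, 80.5 and 94.8 CPM on SFN, and its lowest DMSO library had 103 CPM, so the groups again did not overlap. Its log2 change was -0.53 ± 0.13 (adjusted p = 0.008384, edgeR with Benjamini-Hochberg adjustment). asb-2 measured 191, 159, 160 and 125 CPM on SFN and 93.1, 110, 154 and 47.4 CPM on DMSO, with overlap. Its log2 change of 0.55 ± 0.16 (adjusted p = 0.02622, edgeR with Benjamini-Hochberg adjustment) ranged from 0.42 to 0.81 with adjusted p up to 0.1135 when single libraries were left out. It did not pass without SFN replicate 1 or 2 or without DMSO replicate 1, 2 or 4. In a fit of only these groups none of the 3 passed, with adjusted p of 0.2389 for ucr-2.1, 0.1201 for nduf-2.2 and 0.3008 for asb-2 (edgeR with Benjamini-Hochberg adjustment).

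The members were also split by chromosome at day 4, which was done after the values had been seen. The median log2 change was 0.55 for the 5 X-linked members (gas-1, sdha-1, ucr-2.1, asb-2 and asg-2) and -0.05 for the 30 autosomal ones. Over all genes tested the medians were 0.47 on the X chromosome, where 12.9% rose, and 0.05 on the autosomes. The DMSO library of day 4 replicate 4 held the lowest values of sdha-1 (5.47 CPM) and of asg-2 (0 CPM). Without it and day 2 replicate 1, 3 members rose (ucr-2.1 by 0.69, asb-2 by 0.41 and asg-2 by 0.58) and 4 fell (nduf-2.2 by 0.50, nduf-7 by 0.28, sdhb-1 by 0.29 and asb-1 by 0.33 on the log2 scale). Without DMSO replicate 3 alone, 3 rose and 3 fell. Of the 11 muscle markers 8 rose on SFN at this age, with a summed level of 2280 to 2690 CPM against 926 to 1910 CPM on DMSO. Genes of other tissues rose too, 2 of 7 intestine, 2 of 7 neuronal, 2 of 15 oocyte and germline and 1 of 2 tested hypodermis genes, and the part of these tissues was not tested.

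At day 8 no member passed the edgeR test, where 2.84% of all genes rose and 0.683% fell, and none had an unadjusted p under 0.05. DESeq2 gave the same count. The log2 changes had a median of -0.01.

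At day 12, 3 members fell and none rose, where 4.99% of all genes fell and 13.8% rose. atp-3 measured 406, 426, 411 and 454 CPM on SFN and 557, 632, 500 and 485 CPM on DMSO, without overlap. The log2 change was -0.36 ± 0.09 (adjusted p = 0.001409, edgeR with Benjamini-Hochberg adjustment). sdhb-1 measured 177, 179, 170 and 178 CPM on SFN and 222, 239, 210 and 203 CPM on DMSO, also without overlap, a log2 change of -0.31 ± 0.09. nuo-2, a core subunit of complex I, changed by -0.34 ± 0.12 (adjusted p = 0.04305, edgeR with Benjamini-Hochberg adjustment) and did not pass in 6 of 8 fits with 1 library left out. Here too 32 of 35 members had negative values, with a median of -0.12 against 0.00468 for all genes. Without DMSO replicate 2, or with no filter on low counts, atp-3 alone passed. A fit of only these groups called 5, and without the doubted libraries of days 2 and 4, 8 members passed, all lower. All 11 muscle markers rose here (summed level 1230 to 1740 CPM against 542 to 617 CPM), as did 9 of the 12 protein genes of the mitochondrial genome, 2 of 7 intestine genes, 1 of 7 neuronal genes and both tested hypodermis genes (summed level of that list 244 to 383 CPM against 23.2 to 42.8 CPM). Their part was not tested.

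At day 16, 3 members fell and none rose, where 7.45% of all genes fell and 11.9% rose. atp-3 measured 433, 460, 482 and 451 CPM on SFN and 548, 567, 564 and 592 CPM on DMSO, without overlap, a log2 change of -0.31 ± 0.09 (adjusted p = 0.006228, edgeR with Benjamini-Hochberg adjustment). gas-1 (WBGene00001520, chromosome X:15586786-15590397) measured 45, 36.6, 46.2 and 36.4 CPM on SFN and 56.9, 59.8, 47.8 and 71.7 CPM on DMSO, without overlap. Its log2 change was -0.52 ± 0.15 (adjusted p = 0.009226, edgeR with Benjamini-Hochberg adjustment), and it did not pass without DMSO replicate 4, when the count was 1. nuo-2 changed by -0.33 ± 0.12, with an adjusted p of 0.04978 (edgeR with Benjamini-Hochberg adjustment), and did not pass in 7 of 8 fits with 1 library left out. With no filter on low counts 1 member passed, and in a fit of only these groups 8 did. Without the doubted DMSO libraries of days 2 and 4, 7 members were lower and 1, nduf-5, higher. Of 15 oocyte and germline genes 11 rose at this age, with a summed level of 14800 to 16400 CPM against 13000 to 13300 CPM. Of the 11 muscle markers 6 rose, as did both tested hypodermis genes and 3 of 7 intestine genes, of which 2 others fell. Their part was not tested.

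The difference of the SFN effect between the 5 ages was tested directly. It passed for 1 member, ucr-2.1 (adjusted p = 0.007407, edgeR with Benjamini-Hochberg adjustment), where 13% of all genes passed. Without the doubted libraries 5 members passed (ucr-2.1, gas-1, sdha-1, nduf-5 and asg-2), and the count was 2 in each of 7 fits that left out a single DMSO library (day 2 replicates 1, 2 and 4, day 4 replicates 1, 2 and 3, and day 16 replicate 3). Of the 22 further complex I subunits none rose on SFN at any age in N2, and 4, 2, 0, 2 and 3 fell at days 2, 4, 8, 12 and 16.

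**Figure D5:**
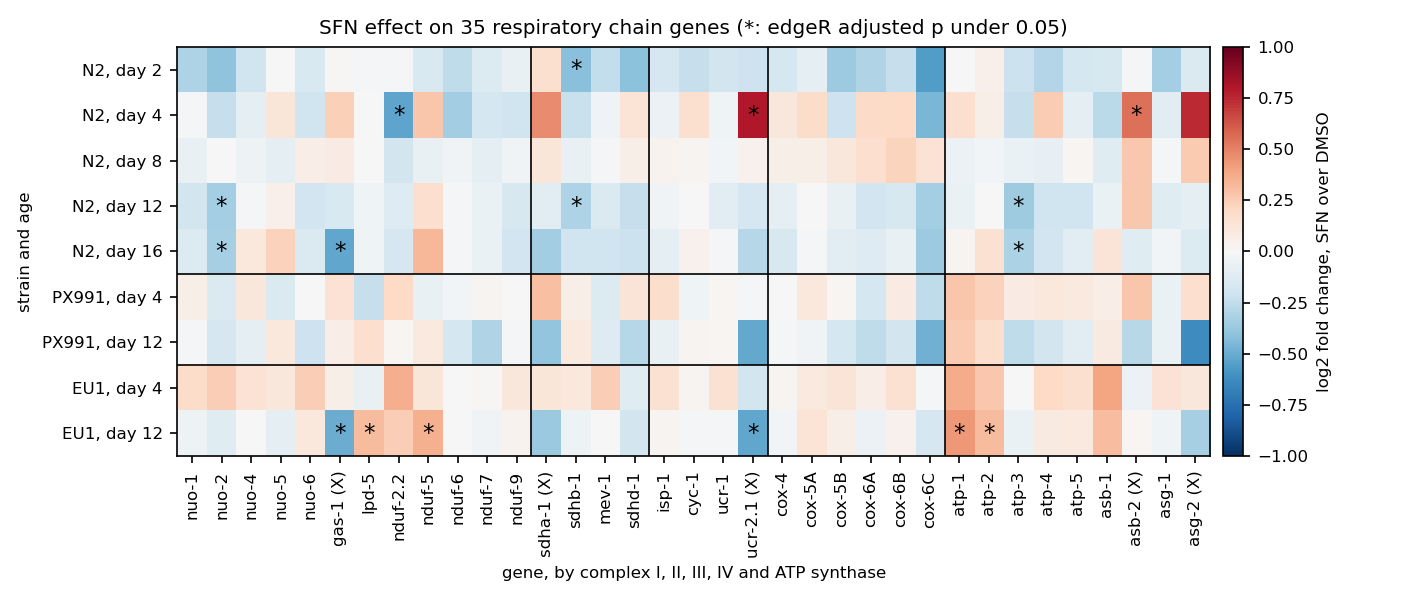
Log2 change on SFN against DMSO (colour) for the 35 tested members in N2 at 5 ages and in PX991 and EU1 at days 4 and 12; asterisks mark an adjusted p under 0.05. Asterisks stand at 1, 3, 0, 3 and 3 members in N2 and at 6 members in EU1 at day 12.

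In the mutants the same question was put at days 4 and 12. In PX991 no member passed at either age with edgeR, where 0.506% of all genes passed at day 4 and 4.69% at day 12. An unadjusted p under 0.05 was reached by 2 and 6 members, and DESeq2 called 1 and 2. At day 12 single libraries added 1 call, without SFN replicate 1 or SFN replicate 3, and the latter is the library with the most genes.

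In EU1 at day 4 no member passed with edgeR, where 0.169% of all genes passed. An unadjusted p under 0.05 was reached by 7 members, DESeq2 called 1 and edgeR with no filter on low counts called 2. Values were positive for 30 of 35, with a median of 0.12 against -0.03 for all genes. Without DMSO replicate 5 or SFN replicate 5, 1 member passed.

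At day 12 in EU1, 4 members rose and 2 fell, where 11.3% of all genes rose and 7.95% fell. atp-1 (WBGene00010419, chromosome I:12652277-12654655) measured 1130, 1000, 1100, 1180, 1280 and 1050 CPM on SFN and 872, 841, 808, 687, 860 and 922 CPM on DMSO. Every SFN library lay above every DMSO library, and the log2 change was 0.43 ± 0.10 (SE, n = 6 and 6; adjusted p = 0.004593, edgeR with Benjamini-Hochberg adjustment). nduf-5 separated the groups in the same way, with 66.3 to 88.2 CPM on SFN and 54 to 62.4 CPM on DMSO, a log2 change of 0.35 ± 0.10. atp-2 and lpd-5 also rose, each by 0.32 on the log2 scale. gas-1 (-0.49) and ucr-2.1 (-0.52) fell, with overlapping groups. Without DMSO replicate 4 the count was 3, all higher. Of the 11 muscle markers 6 rose (summed level 521 to 1050 CPM against 386 to 617 CPM), as did 6 of 14 genes of the mitochondrial unfolded protein response, 4 of 7 intestine genes and both tested hypodermis genes. Their part was not tested.

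The SFN effect of each mutant was then set against that of N2 in one fit over 55 libraries, in which both differences share the N2 libraries. N2 and the mutants come from separate tables, so the difference in effect also carries any difference between the tables. The log2 changes of each strain come from that strain's own fit, so they do not subtract exactly to the difference of the joint fit. At day 4, where 10% of all genes differed between EU1 and N2, 3 members differed. nduf-2.2 had log2 changes of 0.37 in EU1 and -0.53 in N2, a difference of 0.97 ± 0.18 (adjusted p = 0.0005318, edgeR with Benjamini-Hochberg adjustment). asb-1 had 0.40 and -0.27, a difference of 0.72 ± 0.18, and the X-linked ucr-2.1 had -0.19 and 0.80, a difference of -0.96 ± 0.27. Over all X-linked genes tested the median difference was -0.617, with 10.2% lower and 0.458% higher, against a median of -0.0445 on the autosomes. For the 5 X-linked members the median was -0.569. ucr-2.1 did not pass without EU1 DMSO day 4 replicate 6 (adjusted p = 0.05914, edgeR with Benjamini-Hochberg adjustment). Without the doubted N2 DMSO libraries 5 members passed, nuo-2 and sdhb-1 in addition. The count was 6 without N2 DMSO day 4 replicate 3, and 5 without N2 DMSO day 4 replicate 4 or PX991 SFN day 12 replicate 3. With the other size factors the median difference over all genes moved by -0.15 at day 4 and -0.13 at day 12.

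At day 12, where 2.55% of all genes differed between EU1 and N2, atp-1 differed by 0.59 ± 0.14 (adjusted p = 0.02283, edgeR with Benjamini-Hochberg adjustment), with log2 changes of 0.43 in EU1 and -0.06 in N2. This call was lost with the other size factors, without the term for collection and without any of 6 single libraries of day 12 (N2 SFN replicate 1, N2 DMSO replicates 1 and 2, EU1 SFN replicate 1, and EU1 DMSO replicates 4 and 5). The count was 2 without any of 7 others (N2 DMSO day 4 replicates 2 and 4, EU1 DMSO day 4 replicates 3 and 5, EU1 SFN day 12 replicates 4 and 6, and EU1 DMSO day 12 replicate 6). Between PX991 and N2, nduf-2.2 differed at day 4 by 0.77 (adjusted p = 0.04121, edgeR with Benjamini-Hochberg adjustment). sdhb-1 differed at day 12 by 0.50 (adjusted p = 0.04708), where 4.03% of all genes differed, against 0.445% at day 4. Leaving out a single library ended these calls in 30 and 35 of 55 fits, and the block by replicate number ended both.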

How the data were processed

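mRNA libraries of whole worms were made with the KAPA mRNA HyperPrep kit, per the labels' protocols. The deposited values are raw counts per gene from featureCounts 2.0.2 on WBcel235 with Ensembl release 108, per the file headers and the submitters' processing notes; the aligner is not given in the sources used here. Whether counting used strand was not established. Members were matched by symbol, with positions from Ensembl release 115 of the same build. Genes were tested with edgeR 4.0.16 in R 4.3.3 (filterByExpr, TMM factors, robust quasi-likelihood F test), with Benjamini-Hochberg adjustment over all genes tested and a threshold of 0.05. One fit was made per table, with trial as a term for trials 2 and 3 and collection as a term for EU1, and a joint fit compared strains. The SE is the log2 change divided by the root of F. CPM uses TMM-scaled library totals, so levels are comparable within a table only. DESeq2 1.42.0, RLE size factors, no filter, fits of only the groups compared, a replicate block and leaving out each library were alternatives. In each comparison, members past the threshold were named, at most 10 by smallest p, and at most 3 genes of any other list. The paralogue pairs were described for age, and in the SFN comparisons only in part. Other features were named after their values were seen, among them the X-linked members. Members, lists and tests were chosen with earlier results of these data known. The fits were tested on simulated data, with changes put into genes drawn at random from those tested. A log2 change of 0.5 was recovered in 47.4% of such genes for day 2 to 4 in trials 2 and 3. For SFN at day 12 it was recovered in 18.2% (N2), 23.5% (EU1) and 9.28% (PX991). For EU1 minus N2 at day 12 the figure was 1.05%. A change of 1 was recovered in 79.6%, 57.3%, 56.6%, 57.4% and 30% in that order. In these simulations 100 genes were changed by each size, whereas SFN in N2 at day 12 called 1761 genes higher and 635 lower. There atp-3 passed with a log2 change of -0.36. Changes near 0.5 could go uncalled in the SFN comparisons, but the simulations do not give the rate for the members. No replicate libraries were identical in 199 pairs. Biological replicates were aged in tandem, EU1 replicates 4 to 6 excepted, per the labels, and p-values measure the spread between these samples. Same-numbered libraries were taken as paired where every correlation of their deviations exceeded 0.1, which held in 2 of 23 pairs of groups, EU1 on SFN against DMSO at days 4 and 12.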

Additional observations from a re-analysis of the deposited data

Results flagged for a closer look

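A library far from the others was looked for in 196 sets of values, each being 1 quantity in 1 group of 4 to 6 libraries. In 12 sets a library stood out, and chance gives about 1 in 20. For the summed level of the members, N2 SFN day 2 replicate 1 had 10700 CPM (others 10200), and PX991 SFN day 12 replicate 3, the library with the most genes, had 5990 CPM (others 7600 to 7850). asb-1 had 234 CPM in EU1 DMSO day 4 replicate 5 (others 162 to 182). asb-2 had 223 CPM in PX991 SFN day 4 replicate 1 (others 139 to 140) and 90.5 CPM in EU1 SFN day 12 replicate 2 (others 55.7 to 68.6). gas-1 had 24.5 CPM in trial 3 day 4 replicate 3 (others 28.9 to 29.7) and 46.1 CPM in trial 3 day 8 replicate 4 (others 23.4 to 26.4). nduf-2.2 had 104 CPM in N2 SFN day 2 replicate 2 (others 123 to 125) and 76.1 CPM in N2 DMSO day 8 replicate 2 (others 89.7 to 91.1). asg-1 had 132 CPM in N2 SFN day 8 replicate 1 (others 109 to 111) and 42.8 CPM in trial 2 day 8 replicate 2 (others 52.7 to 53.8). asg-2 had 36.3 CPM in PX991 SFN day 12 replicate 1 (others 16.2 to 18.2).

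The other results listed for a closer look are differences of an SFN effect between ages or strains, each by a test of the difference itself (edgeR, Benjamini-Hochberg adjustment). The effect on ucr-2.1 differed between the 5 ages of N2 with an adjusted p of 0.00741. Between PX991 and N2 the log2 effects differed by 0.771 for nduf-2.2 at day 4 and by 0.497 for sdhb-1 at day 12. Between EU1 and N2 they differed at day 4 by 0.966 for nduf-2.2, -0.956 for ucr-2.1 and 0.724 for asb-1, and at day 12 by 0.59 for atp-1.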

How the results depend on the processing

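The counts of members called by edgeR were recomputed under each alternative, and the cause of a change was not tested. With DESeq2 the counts for SFN in N2 were 3 (day 2), 5 (day 4) and 4 (difference between ages), against 1, 3 and 1. DESeq2 also gave 1 and 2 in PX991 at days 4 and 12 and 1 in EU1 at day 4, against 0, and 10 against 5 from day 12 to 16. RLE size factors gave 3 at day 2, 2 between ages, and 0 against 1 for both PX991 differences and the EU1 difference at day 12. Without a filter on low counts there were 5, 1, 1 and 2 calls for SFN in N2 at days 4, 12 and 16 and between ages, 2 in EU1 at day 4, 0 for both PX991 differences, 3 from day 8 to 12, 2 from day 12 to 16, and 4 and 3 for age in PX991 and EU1 (7 each with it). Fits of only the groups compared gave 0, 0, 1, 5 and 8 for SFN at days 2, 4, 8, 12 and 16, 10 from day 12 to 16 and 17 against 30 from day 2 to 4 on DMSO. Without the 2 N2 DMSO libraries with the fewest genes (added after seeing the data) the counts were 7, 7, 8 and 8 at days 2, 4, 12 and 16, 5 between ages, 0 for PX991 minus N2 at day 4, and 5 and 2 for EU1 minus N2. Without the PX991 library with the most genes, 1 member passed at day 12, and without the term for collection the EU1 difference at day 12 had 0. Trial 2 alone gave 11, 3, 3 and 2 for the 4 steps from day 2 to day 16. Trial 3 alone gave 15 at the first and 3 higher and 4 lower from day 4 to 8. It gave 2 from day 8 to 12 and 4 from day 12 to 16. In trial 3 alone isp-1 (-0.005982) and asg-1 (-0.08005) reversed from day 2 to 16. With the replicate block, 0 members passed for both PX991 differences and 3 from day 12 to 16, 21 passed from day 2 to 4 in trials 2 and 3, and EU1 on SFN, whose pairing held, kept 0 and 6 calls. Single libraries left out gave 1 to 3, 2 to 6, 0 to 0, 1 to 4 and 1 to 3 for SFN in N2 by age, 1 to 2 between ages, 0 to 0 and 0 to 1 in PX991, 0 to 1 and 3 to 7 in EU1, 0 to 1 for both PX991 differences, and 2 to 6 and 0 to 2 for the EU1 differences. For age they gave 17 to 23, 7 to 9, 3 to 8 and 2 to 11 for the 4 steps, 16 to 22 from day 2 to 16, 3 to 7 in PX991, 6 to 8 in EU1, and 28 to 33 (DMSO) and 19 to 25 (SFN) from day 2 to 4 in the other table.

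Depth limits the members with few counts, such as gas-1, ucr-2.1 and asg-2 in libraries under 1e6 counts, and nuo-3 could not be tested. All levels are shares of whole-worm RNA.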
